A study of Mus musculus with 10 samples.

Results

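The Wnt effectors and feedback targets are 10 genes at the receiving end of Wnt/β-catenin signalling. They were taken by name: *Ctnnb1*, which encodes β-catenin, the TCF/LEF factors *Tcf7*, *Tcf7l1*, *Tcf7l2* and *Lef1*, and the feedback inhibitors *Axin2*, *Nkd1*, *Notum*, *Rnf43* and *Znrf3*. All 10 were found among the 48795 genes of the count file, and 7 of them were among the 12859 genes that passed the filter on low counts and were tested. When a Wnt ligand binds its Frizzled and LRP receptors, the destruction complex of Axin, APC and GSK3 no longer marks β-catenin for degradation. β-catenin then binds TCF/LEF proteins on DNA, where it displaces Groucho/TLE corepressors and turns on target genes, among them inhibitors that damp the same signal. In the adult subependymal zone, this pathway is known for its roles in the self-renewal and fate of neural stem cells.

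The data are RNA-seq libraries, 10 in all, of stem and progenitor cells of the nervous system (NSC/NPCs) cultured from the subependymal zone of 10-week-old mice. Proliferating cells (PRO) were 3 DIV (days in vitro) neurospheres, floating aggregates kept with 20 ng/ml EGF and 10 ng/ml FGF. Cells at the onset of differentiation (DIFF) were seeded on Matrigel at 40000 cells/cm2, kept for 2 DIV with FGF, then switched to medium with 2% FBS and no mitogen, and collected 24 h later (2 + 1 DIV). Each stage had 3 libraries of wild-type (WT) cells and 2 labelled p27KO, a label for the loss of *Cdkn1b*, the gene of the cell cycle inhibitor p27, on a C57BL/6J background. PRO and DIFF differed at once in attachment, mitogens, serum and time, so that these cannot be told apart, and both are a culture model without the tissue around the cells. Replicates were biological according to the design text. The p-values rest on a spread between replicates that is estimated over all 4 groups together, with information shared across genes. They do not measure the spread of the 2 or 3 libraries of a group alone.

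Depth ranged from 19190068 to 25291674 counts per library. *Cdkn1b* was not lost from the libraries labelled p27KO: it lay between 90.7 and 114 CPM (counts scaled to the library total) in all 5 PRO libraries, and at 137 and 140 CPM in the p27KO DIFF libraries against 205 to 209 CPM in WT DIFF. A count over the whole gene does not separate a deleted part from the exons that remain, and the sample descriptions of these 4 libraries name WT cells, so they are called by their label. Genotype went together with sex: *Xist* lay at 1.16 to 2.57 CPM in WT and 2260 to 3590 CPM in p27KO, and 4 Y-linked genes summed to 189 to 533 CPM in WT and 0.148 to 0.585 CPM in the others. Genotype and sex therefore cannot be told apart. The 8 NSC/NPC markers summed to 7100 to 8880 CPM in all groups. The endothelial markers *Cdh5* and *Cldn5* were at 0 in every library, the list of 6 that holds them summed to 5.69 to 50.4 CPM, with *Kdr* higher and *Flt1* lower in DIFF, and 6 microglial markers summed to at most 0.622 CPM.

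Between stages, the summed level of 4 proliferation markers lay at 1810 to 1990 CPM in WT PRO and at 131 to 249 CPM in WT DIFF. In p27KO it lay at 1940 to 2090 CPM in PRO and at 617 to 719 CPM in DIFF. Astrocyte markers, 5 in all, summed to 636 to 748 CPM in WT PRO and 1960 to 2420 CPM in WT DIFF, and to 688 to 893 CPM and 2130 to 2290 CPM in p27KO. *Aldoc* and *Slc1a2* made up most of these sums, and they rose in both genotypes, as did *Gfap* and *Aqp4*. *S100b* had log2 fold changes of -0.64 in WT and -1.15 in p27KO and did not pass (edgeR, adjusted p = 0.32 and 0.18). In the other marker lists the sum is set by 1 abundant gene, and genes of these lists are given one by one. Of 5 neuroblast and neuron markers, *Dcx* rose in WT by a log2 of 4.61 (edgeR, adjusted p = 0.00181) and *Tubb3* by 1.29 (adjusted p = 0.0122), and in p27KO they rose by 4.33 and 1.24 (adjusted p = 0.00823 and 0.0411). *Map2*, the most abundant at 1218 to 2067 CPM, and *Rbfox3* did not pass, and *Stmn2* was at most 0.0791 CPM and not tested. Among the oligodendroglial markers, *Olig2* and *Cspg4* fell in WT by 1.53 and 1.75 on the log2 scale, whereas *Pdgfra* rose by a log2 of 2.01 (edgeR, adjusted p of 1.73e-06, 0.00106 and 0.017). In p27KO these values were -1.70, -1.97 and 1.44, and that of *Pdgfra* did not pass (edgeR, adjusted p = 0.126). *Mbp* and *Mog*, at most 1.58 and 0.277 CPM in any library, were not tested. *Cspg4* was also the one abundant gene of the 5 pericyte markers: *Pdgfrb* lay at 0 to 0.295 CPM in PRO and 2.19 to 9.49 CPM in DIFF and was not tested, and the other 3 were at most 0.672 CPM. Of 4 ependymal markers, *Foxj1* rose in both genotypes, by a log2 of 2.44 in WT and 2.38 in p27KO (edgeR, adjusted p = 5.77e-07 and 6.37e-06). *Dynlrb2* rose by a log2 of 0.91 in WT (edgeR, adjusted p = 0.0302) and did not pass in p27KO (0.42, adjusted p = 0.379). *Rarres2*, not tested, had lower means in DIFF, at 1.73 and 1.01 CPM in WT PRO and DIFF and 1.21 and 0.702 CPM in p27KO. *Tmem212* was at most 0.0413 CPM. The part of these marker changes in the stage changes of the Wnt genes was not tested. In bulk RNA, a lower level can mean fewer cells that express a gene or less RNA per cell, and these cannot be told apart.

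Of the 7 members tested, 2 rose and 3 fell from PRO to DIFF in WT at an adjusted p under 0.05, where 33.5% of all genes tested rose and 33.9% fell. In the libraries labelled p27KO, 1 rose and 4 fell, against 27.5% and 30.2% of all genes. Most genes of these cells changed between the stages, and the counts of members are read against that background. The median log2 fold change of the 7 members was -0.11 in WT and -0.51 in p27KO, and that of all genes tested was -0.0019 and -0.0291. The members did not move together: among the TCF/LEF factors *Tcf7l1* rose and *Tcf7* fell, the feedback inhibitors *Nkd1* and *Znrf3* fell, and *Ctnnb1* and, in WT, *Axin2* did not pass the test. Both stage changes were fitted in the same model, without a replicate block.

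**Figure D1:**
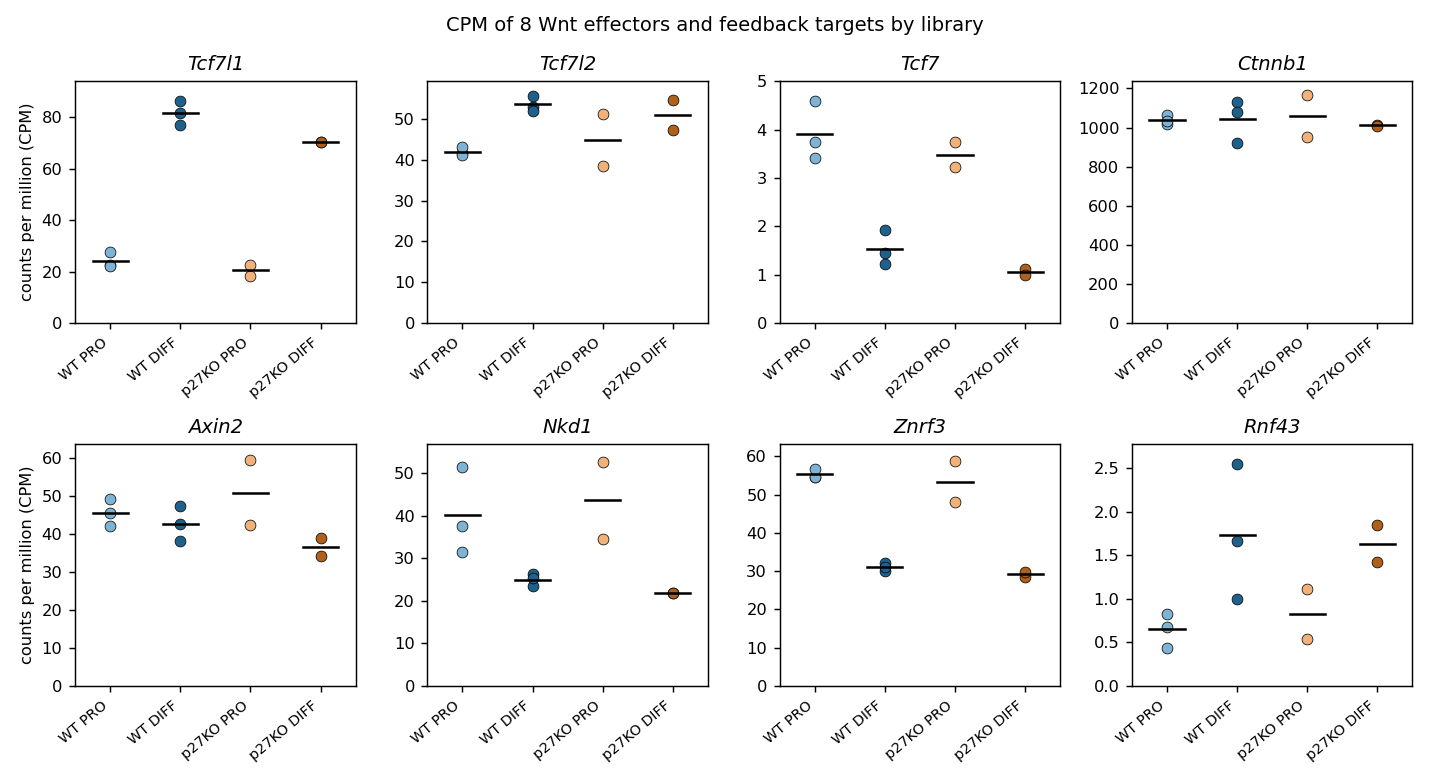
Level in CPM (vertical axis, from 0) of 8 members in each library (points) and their group mean (line), for WT and for libraries labelled p27KO, in proliferating neurospheres (PRO) and at 2 + 1 DIV (DIFF). *Tcf7l1* lies between 18.4 and 27.6 CPM in the 5 PRO libraries and between 70.3 and 86.2 CPM in the 5 DIFF libraries, whereas *Ctnnb1* lies between 923 and 1167 CPM in all 10.

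The TCF/LEF factors bind the same DNA element through an HMG box, a DNA-binding fold that is nearly the same in all 4 proteins. They differ in what they do once bound: *Tcf7l1* is known mainly as a repressor of Wnt target genes, *Lef1* and *Tcf7* mainly as activators, and *Tcf7l2* as either. How alike the 4 genes are bears on whether their reads can be told apart. The stretch of 120 coding bases most alike between them covers the end of the HMG box and the basic residues after it, and is shown here from GENCODE vM21 transcripts (GRCm38), 5′ to 3′ on the coding strand. Capitals mark the 84 of 120 positions that have the same base in all 4 genes. It spans 2 exons of each gene, at chr3:131200313-131204285 (plus strand) in *Lef1*, chr11:52256277-52256829 (minus strand) in *Tcf7*, chr6:72630002-72631101 (minus strand) in *Tcf7l1* and chr19:55919529-55923925 (plus strand) in *Tcf7l2*.
Lef1: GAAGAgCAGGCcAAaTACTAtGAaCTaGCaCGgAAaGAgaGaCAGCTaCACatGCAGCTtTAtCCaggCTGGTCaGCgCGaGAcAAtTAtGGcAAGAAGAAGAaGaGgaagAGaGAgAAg
Tcf7: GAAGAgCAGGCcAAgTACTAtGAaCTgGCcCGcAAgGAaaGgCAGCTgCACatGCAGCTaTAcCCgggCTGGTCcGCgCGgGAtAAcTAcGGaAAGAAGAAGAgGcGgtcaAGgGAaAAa
Tcf7l1: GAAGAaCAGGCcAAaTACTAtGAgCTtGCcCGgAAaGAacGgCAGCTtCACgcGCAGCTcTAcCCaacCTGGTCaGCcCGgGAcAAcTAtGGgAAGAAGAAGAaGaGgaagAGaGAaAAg
Tcf7l2: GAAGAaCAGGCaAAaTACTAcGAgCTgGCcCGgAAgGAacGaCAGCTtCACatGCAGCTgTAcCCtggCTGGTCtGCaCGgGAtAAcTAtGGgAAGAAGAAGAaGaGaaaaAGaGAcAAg
Pairs of genes shared 78.3 to 85.8% of these bases. *Tcf7l1* and *Tcf7l2* were the most alike, with 103 of 120 bases, and *Tcf7* and *Tcf7l1* the least, with 94. The longest run of identical bases between any coding transcripts of 2 of the genes was 23 bases, in 2 pairs, *Lef1* with *Tcf7l1* and *Tcf7l1* with *Tcf7l2*. The counts are given per gene, so that short and long forms of a factor, with or without the part that binds β-catenin, cannot be told apart.

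*Tcf7l1* (chromosome 6, 72626378 to 72789254, minus strand, GRCm38) was the member with the largest increase. It measured 22.4, 27.6 and 22.2 CPM in the WT PRO libraries and 81.5, 86.2 and 76.8 CPM in WT DIFF. Libraries labelled p27KO gave 18.4 and 22.6 CPM in PRO and 70.3 and 70.5 CPM in DIFF. Every DIFF library lay above every PRO library. The fitted log2 fold change was 1.75 ± 0.12 (SE, edgeR quasi-likelihood test, adjusted p = 1.17e-06) in WT, a 3.36-fold rise, and 1.75 ± 0.14 (adjusted p = 1.03e-05) in p27KO, a 3.38-fold rise. An antisense gene, *Gm15401*, shares 179 exon bases with it.

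*Tcf7l2* (chromosome 19, 55741820 to 55933654, plus strand) changed far less. It measured 41.7, 41.2 and 43.1 CPM in WT PRO and 53.0, 55.6 and 52.0 CPM in WT DIFF, without overlap. The log2 fold change in WT was 0.34 ± 0.12 (SE, edgeR, adjusted p = 0.0257). This call was lost without any filter on low counts (0.26, adjusted p = 0.0812), and also when WT PRO 1, WT PRO 2 or WT DIFF 2 was left out. In the libraries labelled p27KO the groups overlapped, with 38.5 and 51.2 CPM in PRO and 54.7 and 47.3 CPM in DIFF, and the log2 fold change of 0.16 (95% confidence interval -0.16 to 0.48, edgeR, adjusted p = 0.363) did not pass. Without the p27KO PRO 2 library it was 0.40 and passed (adjusted p = 0.0254), and without PRO 1 it was -0.05.

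*Tcf7* (chromosome 11, 52252371 to 52283014, minus strand), which encodes TCF1, was low and went the other way. It measured 4.59, 3.75 and 3.41 CPM in WT PRO, from 74 to 94 counts per library. In WT DIFF it measured 1.93, 1.45 and 1.23 CPM, from 31 to 38 counts. The libraries labelled p27KO measured 3.22 and 3.74 CPM in PRO and 1.11 and 0.99 CPM in DIFF. All DIFF libraries lay below all PRO libraries, with a log2 fold change of -1.36 ± 0.23 (SE, edgeR, adjusted p = 0.000469) in WT and -1.75 ± 0.29 (adjusted p = 0.000639) in p27KO.

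*Lef1* (chromosome 3, 131110471 to 131224356, plus strand) was hardly detected. Its counts were 3, 5 and 3 in WT PRO, 2, 0 and 4 in WT DIFF, 0 and 0 in p27KO PRO, and 1 and 0 in p27KO DIFF. The antisense gene *Gm43352* shares 1208 exon bases with *Lef1*, which at such counts leaves the source of these reads uncertain. *Lef1* did not pass the filter on low counts. A count of 0 allows up to 3 counts, so that at this depth the groups could not be separated: fitted without a filter in edgeR, no comparison of *Lef1* passed, with adjusted p of 0.53 to 1, and the lowest unadjusted p was 0.0185, for p27KO against WT neurospheres.

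To compare levels of different genes, CPM were divided by the length of all annotated exons of each gene. That length is 8775 bases for *Tcf7l2* and 3924 for *Tcf7l1*, and the length of the forms expressed is not known. Sums and shares depend on this divisor: in plain CPM, *Tcf7l2* averaged 42.0 and *Tcf7l1* 24.1 in WT PRO, and 53.6 and 81.5 in WT DIFF. Per length, the 4 factors summed to 11.9 to 13.2 CPM per kb of exon in WT PRO and 26.0 to 28.8 CPM per kb in WT DIFF. In p27KO the sum was 10.3 and 13.0 CPM per kb in PRO and 24.6 and 23.7 CPM per kb in DIFF. *Tcf7l1* made up 49.2% ± 3.62 (SD, n = 3) of this sum in WT PRO and 75.6% ± 0.449 in WT DIFF. *Tcf7l2* made up 38.6% ± 2.85 and then 22.2% ± 0.506, and *Tcf7* 10.8 to 14.3% and then 1.80 to 2.67%. *Lef1* was at most 0.172% in any library. In p27KO the share of *Tcf7l1* went from 44.9% ± 0.937 (SD, n = 2) to 74.3% ± 1.98, that of *Tcf7l2* from 43.7% ± 1.62 to 24.0% ± 1.87, and that of *Tcf7* from 11.4% ± 0.680 to 1.65% ± 0.0936. The share of *Tcf7l2* was thus lower in every DIFF library than in every PRO library although its own mean level was not, since *Tcf7l1* rose in the same sum.

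**Figure D2:**
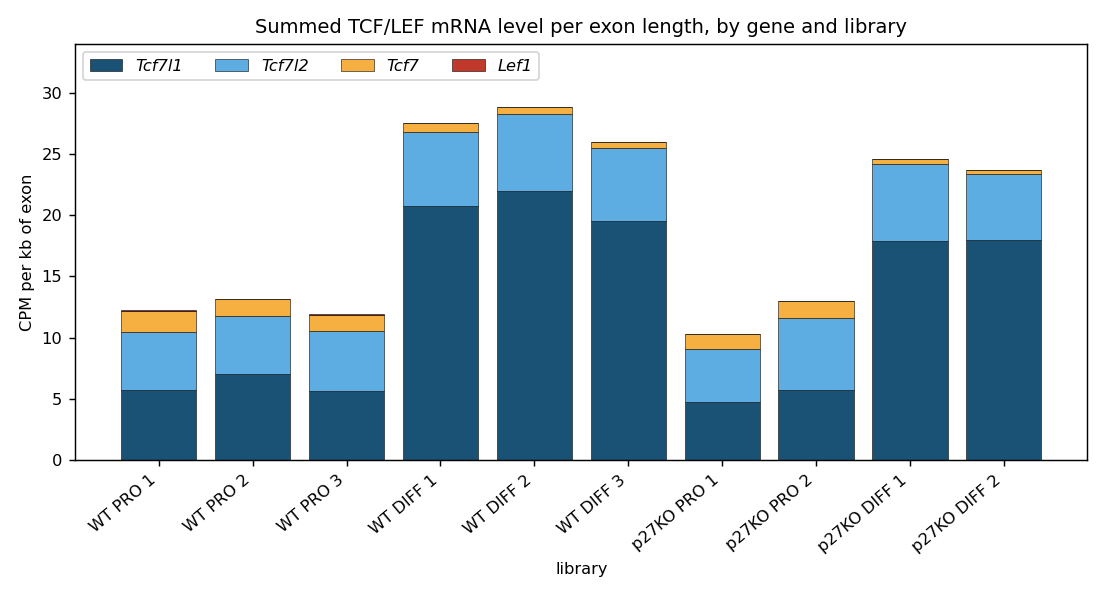
Stacked bars of the level of *Tcf7l1*, *Tcf7l2*, *Tcf7* and *Lef1* in CPM per kb of exon (vertical axis, from 0) in each of the 10 libraries. Exon length counts all annotated exons of a gene, and p27KO is the label of the libraries. The summed level is 10.3 to 13.2 CPM per kb in the PRO libraries and 23.7 to 28.8 CPM per kb in the DIFF libraries, with *Tcf7l1* as the largest part of every bar except that of p27KO PRO 2, where *Tcf7l2* is slightly larger.

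*Ctnnb1* (chromosome 9, 120929216 to 120960507, plus strand) was by far the most abundant member. It measured 1063, 1018 and 1035 CPM in WT PRO and 1131, 923 and 1078 CPM in WT DIFF. The p27KO libraries held 1167 and 950 CPM in PRO and 1014 and 1010 CPM in DIFF. The groups overlapped. The log2 fold change was -0.00 in WT (95% confidence interval -0.22 to 0.21, edgeR, adjusted p = 0.97) and -0.09 in p27KO (-0.35 to 0.17, adjusted p = 0.535). These are levels of mRNA, while Wnt signalling is known to act on the β-catenin protein, which was not measured here. *Ulk4* on the opposite strand shares 759 exon bases with it.

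Among the feedback inhibitors, *Axin2* (chromosome 11, 108920349 to 108950783, plus strand) encodes a scaffold of the destruction complex and is widely used as a readout of Wnt/β-catenin signalling. It measured 49.3, 42.1 and 45.5 CPM in WT PRO and 47.3, 38.1 and 42.7 CPM in WT DIFF. These overlapped, with a log2 fold change of -0.11 (95% confidence interval -0.42 to 0.21, edgeR, adjusted p = 0.517). In the libraries labelled p27KO it measured 42.3 and 59.5 CPM in PRO and 38.8 and 34.1 CPM in DIFF. Both DIFF values lay below both PRO values there, and the log2 fold change of -0.51 ± 0.17 (SE, edgeR, adjusted p = 0.0289) passed. That call rested on the p27KO PRO 2 library, the highest of all 10 for *Axin2*: without it the log2 fold change was -0.22 (adjusted p = 0.26). It was also lost when either p27KO DIFF library was left out, and when the 2 groups were fitted on their own. An antisense gene, *Gm11670*, shares 209 exon bases with *Axin2*.

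*Znrf3* (chromosome 11, 5276324 to 5444847, minus strand) encodes a membrane E3 ubiquitin ligase that removes Frizzled receptors from the cell surface. It measured 54.6, 54.7 and 56.8 CPM in WT PRO and 30.1, 32.2 and 31.0 CPM in WT DIFF. The libraries labelled p27KO measured 48.0 and 58.8 CPM in PRO and 28.5 and 29.8 CPM in DIFF. No DIFF library reached the lowest PRO library. The log2 fold change of *Znrf3* was -0.84 in WT (SE 0.09, edgeR, adjusted p = 3.27e-05) and -0.90 in p27KO (SE 0.12, adjusted p = 0.000137).

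*Nkd1* (chromosome 8, 88521354 to 88594884, plus strand) encodes Naked cuticle 1, which binds Dishevelled. Its levels were spread in PRO, at 51.4, 37.6 and 31.5 CPM in WT and 34.5 and 52.7 CPM in p27KO. They were close together in DIFF, at 26.3, 23.5 and 25.3 CPM in WT and 21.7 and 21.9 CPM in p27KO. The stages did not overlap. The log2 fold change of *Nkd1* was -0.69 in WT (SE 0.20, edgeR, adjusted p = 0.0109) and -1.03 in p27KO (SE 0.24, adjusted p = 0.00522). Without the p27KO PRO 2 library the fall in p27KO was -0.66, which still passed the threshold.

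*Rnf43* (chromosome 11, 87662722 to 87735539, plus strand), the paralogue of *Znrf3* with the same action on Frizzled receptors, was near the limit of the filter and was not tested. Its counts were 13, 11 and 18 in WT PRO and 50, 24 and 42 in WT DIFF, which are 0.68, 0.44 and 0.83 CPM and 2.54, 0.99 and 1.66 CPM. The p27KO libraries held counts of 27 and 11 in PRO and 36 and 41 in DIFF, which are 1.12 and 0.54 CPM and 1.43 and 1.84 CPM. All DIFF values in CPM lay above those of PRO except that WT DIFF 2, at 0.99 CPM, was below p27KO PRO 1, at 1.12 CPM. With the filter read the other way, keeping genes that reach 1 CPM in 4 libraries or more, 14070 genes were tested, and *Rnf43* had a log2 fold change of 1.36 ± 0.42 (SE, edgeR, adjusted p = 0.0166) in WT and 0.90 ± 0.50 (adjusted p = 0.15) in p27KO. Under that filter 34% of genes rose and 34.1% fell in WT, and 28.1% rose and 30.4% fell in p27KO. *Rnf43* reached 1 CPM mainly in DIFF libraries, where it was higher, and in no WT PRO library. It was thus admitted by its stage difference, and these p-values are not read as a result.

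*Notum* (chromosome 11, 120653788 to 120661175, minus strand), an enzyme that removes the lipid from Wnt ligands, was hardly detected. Its counts were 2, 2 and 2 in WT PRO, 7, 5 and 1 in WT DIFF, 1 and 0 in p27KO PRO, and 6 and 4 in p27KO DIFF. The antisense gene *Notumos* shares 708 exon bases with it, which at such counts leaves the source of these reads uncertain. It did not pass the filter on low counts, and fitted without a filter in edgeR no comparison of *Notum* passed (adjusted p of 0.13 to 1), and the lowest unadjusted p was 0.0451, for DIFF against PRO in p27KO.

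Per length, the order of the members in WT PRO was *Ctnnb1* at 196 to 205 CPM per kb of exon, *Nkd1* at 8.81 ± 2.24 (SD, n = 3), *Axin2* at 8.29 ± 0.652, *Znrf3* at 7.01 ± 0.155, *Tcf7l1* at 6.14 ± 0.778, *Tcf7l2* at 4.79 ± 0.111, *Tcf7* at 1.49 ± 0.230 and *Rnf43* at 0.0989 ± 0.0301, with *Notum* and *Lef1* lower still. *Nkd1* overlapped *Axin2* and *Znrf3* between libraries, and *Znrf3* overlapped *Tcf7l1*. In WT DIFF *Ctnnb1* was still first, at 178 to 218 CPM per kb, and *Tcf7l1* stood second, at 20.8 ± 1.20 CPM per kb, ahead of *Axin2* at 7.76 ± 0.835, *Tcf7l2* at 6.10 ± 0.211, *Nkd1* at 5.49 ± 0.313, *Znrf3* at 3.94 ± 0.130 and *Tcf7* at 0.585 ± 0.138. No 2 neighbours in that order from *Ctnnb1* to *Tcf7* overlapped between libraries. Both orders depend on the exon length used, which counts all annotated exons of a gene.

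**Figure D3:**
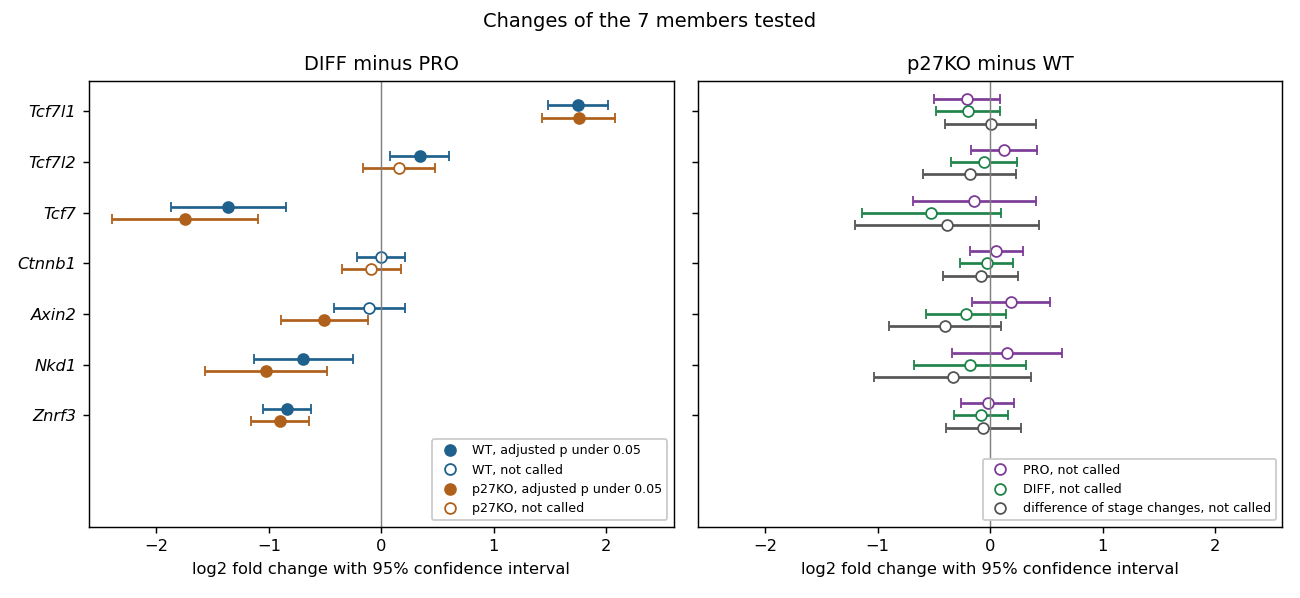
Fitted log2 fold changes (horizontal axis) of the 7 tested members with 95% confidence intervals, for DIFF minus PRO in each genotype (left) and for libraries labelled p27KO minus WT at each stage together with the difference of the stage changes (right). Filled points have an adjusted p under 0.05: they are 5 of 7 in each genotype on the left and none on the right.

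Libraries labelled p27KO were then compared with WT, a comparison that cannot separate p27 from sex. The stage change did not pass a test of difference between the genotypes for any of the 7 members, at adjusted or unadjusted p (0 of 7 in edgeR's quasi-likelihood test), where 0.389% of all genes passed the adjusted one. That share stands for 50 genes, and 29 were called with the replicate number as a block within each genotype, which gave 0 of 7 members too. DESeq2 called 0 of 7 as well. The largest difference was that of *Axin2*, with a log2 difference, p27KO minus WT, of -0.40 with a 95% confidence interval of -0.90 to 0.10. For *Tcf7l1* the difference was 0.01 (-0.40 to 0.41), for *Znrf3* -0.06 (-0.39 to 0.27), for *Ctnnb1* -0.08 (-0.42 to 0.25), for *Tcf7l2* -0.18 (-0.60 to 0.23), for *Nkd1* -0.33 (-1.03 to 0.37) and for *Tcf7* -0.38 (-1.20 to 0.43). These intervals are wide, and a difference as large as the fall of *Nkd1* in WT lies inside those of *Tcf7*, *Nkd1* and *Axin2*. That *Axin2* passed the threshold in p27KO and not in WT therefore does not show a difference between them.

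Between genotypes at the same stage, 0 of 7 members passed at 2 + 1 DIV, where 2.04% of all genes did, and 0 of 7 in neurospheres, where 0.0156% did. No member had an unadjusted p under 0.05 at either stage in edgeR, and DESeq2 called none. At 2 + 1 DIV the log2 difference, p27KO minus WT, was lowest for *Tcf7* at -0.52 (95% confidence interval -1.14 to 0.09) and nearest to 0 for *Ctnnb1* at -0.03 (-0.27 to 0.21). It was -0.20 for *Tcf7l1* (-0.48 to 0.09) and -0.21 for *Axin2* (-0.57 to 0.14). All 7 differences were below 0, where the median of all genes tested was -0.0148. Both p27KO DIFF libraries lay below the 3 of WT DIFF in CPM for *Tcf7l1*, *Tcf7*, *Nkd1* and *Znrf3*, while *Ctnnb1*, *Tcf7l2* and *Axin2* overlapped. How many of all genes separate in this way was not counted, and these values are not read as a trend. In neurospheres the differences ran from -0.20 for *Tcf7l1* (-0.50 to 0.09) to 0.19 for *Axin2* (-0.16 to 0.54).

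The other genes of the pathway were described by lists of 96 genes, of which 61 were tested. In WT, 30 rose, 20 fell and 11 did not pass, where 33.5% of all genes tested rose and 33.9% fell, with a median log2 fold change of 0.31. In p27KO, 25 rose, 17 fell and 19 did not pass, where 27.5% of all genes rose and 30.2% fell, with a median of 0.26. The counts of each list stand beside the same shares, no list was tested as a list, and its counts are a description of its genes. Where 2 values are given for a gene of these lists, the first is the log2 fold change in WT and the second that in p27KO. In edgeR, 0 of 61 passed in the difference of the stage changes (2 at an unadjusted p under 0.05), 0 of 61 between genotypes at 2 + 1 DIV (8 unadjusted) and 0 of 61 in neurospheres (1 unadjusted). DESeq2 called 1 of them, *Tle4* at 2 + 1 DIV.

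**Figure D4:**
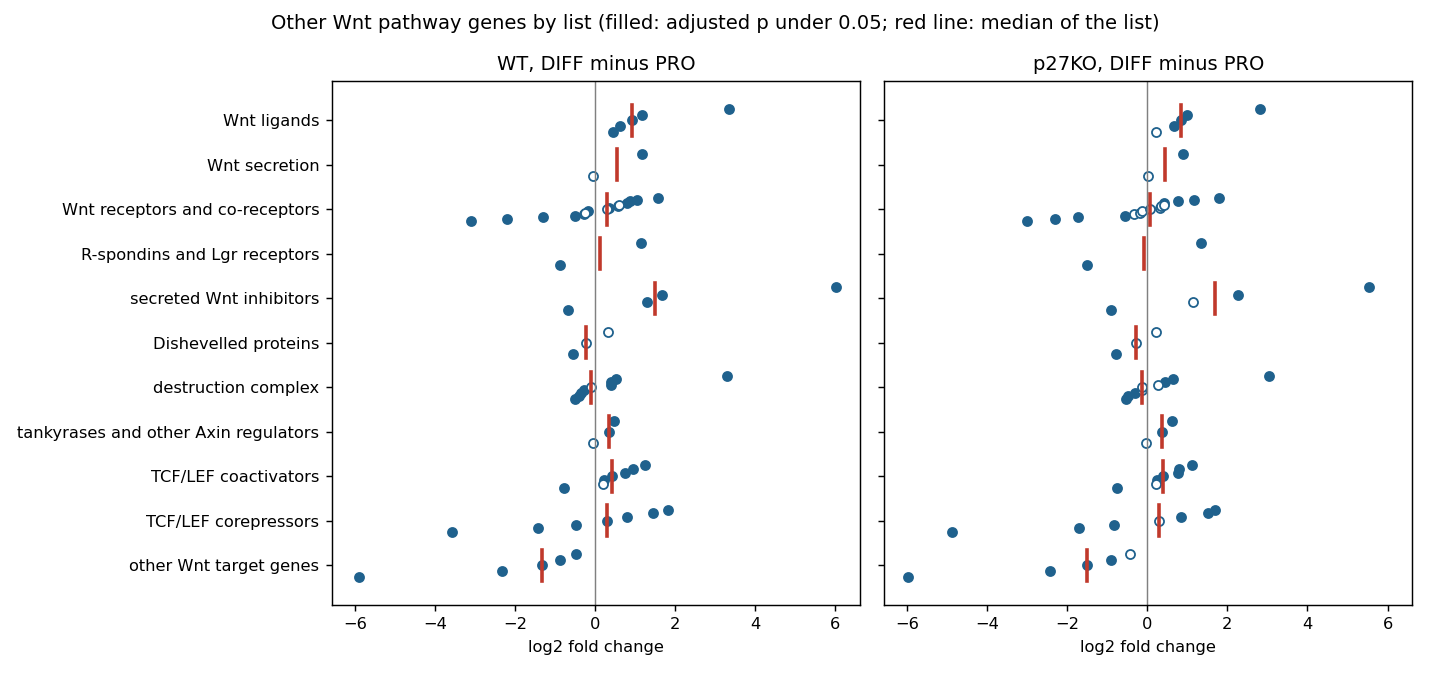
Log2 fold changes (horizontal axis) from PRO to DIFF of the tested genes of each list (rows) in WT and in libraries labelled p27KO; filled points have an adjusted p under 0.05 and the red line is the median of the list. All tested ligands lie right of 0 and all tested genes of the list of other Wnt targets lie left of it in both genotypes.

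Of 19 Wnt ligands, 5 were tested, and all 5 rose in WT and 4 in p27KO, where 33.5% and 27.5% of all genes rose. *Wnt5b* had the largest change, with log2 fold changes of 3.33 in WT and 2.81 in p27KO, though from a low level of 0.917 to 1.98 CPM in PRO. *Wnt7b*, at 52.3 to 107 CPM in the WT PRO libraries and 157 to 216 CPM in WT DIFF, rose by a log2 of 1.17 and 0.99. Ligand release needs *Porcn*, which adds the lipid, and it rose by a log2 of 1.16 and 0.90, whereas *Wls*, the carrier, had log2 fold changes of -0.04 and 0.01 and did not pass.

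Of the receptors and co-receptors, 5 of 15 rose and 5 fell in WT, and 4 rose and 4 fell in p27KO, which is close to the shares of all genes (33.5% and 33.9% in WT, 27.5% and 30.2% in p27KO). *Fzd3* was the most abundant of them, with 154 to 170 CPM in WT PRO and 423 to 540 CPM in WT DIFF, and its log2 fold changes were 1.57 and 1.80. *Fzd7* rose by a log2 of 1.03 in WT and 1.16 in p27KO. *Fzd10* went from 30.9 to 42.8 CPM in WT PRO to 3.36 to 4.90 CPM in WT DIFF, with log2 fold changes of -3.11 and -3.01, and *Ror2*, a receptor of Wnt5a outside the β-catenin branch, had log2 fold changes of -2.19 and -2.29. The R-spondin receptors *Lgr4* and *Lgr5*, which hold back Znrf3 and Rnf43 when R-spondin is bound, went opposite ways. *Lgr4* had a log2 fold change of 1.13 in WT and 1.35 in p27KO, and *Lgr5* -0.89 and -1.50. The R-spondin genes *Rspo1* to *Rspo4* were at most 1.27 CPM in any library and were not tested.

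Of 12 secreted inhibitors, 4 were tested, and 3 rose in WT and 2 in p27KO, where 33.5% and 27.5% of all genes rose. *Sfrp2* fell in both, where 33.9% and 30.2% of all genes fell. *Draxin*, an axon guidance protein that also antagonizes Wnt, measured 2.14, 2.23 and 3.32 CPM in WT PRO and 172, 154 and 179 CPM in WT DIFF. The libraries labelled p27KO measured 2.27 and 3.64 CPM in PRO and 146 and 130 CPM in DIFF. Its log2 fold changes of 6.02 and 5.53 were the largest rises of the genes tested in these lists. *Sfrp1*, which binds Wnt ligands, rose by a log2 of 1.30 in WT and 2.26 in p27KO.

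In the destruction complex, 4 of 9 genes rose and 4 fell in WT, and 3 rose and 3 fell in p27KO, most by little. Of all genes tested, 33.5% rose and 33.9% fell in WT, and 27.5% rose and 30.2% fell in p27KO. *Apc2*, a neural relative of *Apc*, stood apart with 13.9 to 28.9 CPM in WT PRO and 151 to 247 CPM in WT DIFF, and log2 fold changes of 3.30 and 3.05. *Gsk3b* rose by a log2 of 0.53 and 0.64, while *Gsk3a* had log2 fold changes of -0.50 and -0.54 and *Axin1* -0.39 and -0.48. *Dvl1* was the 1 of 3 Dishevelled genes that fell, with log2 fold changes of -0.56 and -0.78. Of the tankyrases and Axin regulators, *Tnks* and *Rnf146*, which mark Axin for degradation, rose by a log2 of 0.35 and 0.48 in WT and 0.38 and 0.62 in p27KO.

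Of the coactivators of TCF/LEF, 5 of 7 rose and 1 fell in both genotypes, where 33.5% of all genes rose in WT and 27.5% in p27KO. *Pygo1* rose by a log2 of 1.24 and 1.12, and *Pygo2* had log2 fold changes of -0.79 and -0.74. Of the corepressors, 4 of 7 rose and 3 fell in WT, and 3 rose and 3 fell in p27KO. The shares of all genes that fell were 33.9% in WT and 30.2% in p27KO. *Hbp1*, an HMG box repressor that interferes with TCF binding, went from 34.3 to 42.3 CPM in WT PRO to 135 to 144 CPM in WT DIFF, with log2 fold changes of 1.81 and 1.69. *Tle1* rose by a log2 of 1.44 and 1.51. *Tle2* had log2 fold changes of -3.57 and -4.88, and *Tle5* (*Aes*), a short TLE protein, had log2 fold changes of -1.44 and -1.71.

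In the list of other Wnt target genes, all 5 tested fell in WT and 4 in p27KO, where 33.9% and 30.2% of all genes fell. *Ccnd1*, which encodes cyclin D1, measured 2601, 2340 and 2210 CPM in WT PRO and 51.0, 31.3 and 39.9 CPM in WT DIFF. The p27KO libraries had 2075 and 2238 CPM in PRO and 36.5 and 33.7 CPM in DIFF. The log2 fold changes were -5.89 and -5.97, the largest falls of the genes tested in these lists. *Myc* had log2 fold changes of -2.31 and -2.44. Both genes are also known to respond to growth factors. *Axin2*, also a target, measured 34.1 to 59.5 CPM over all 10 libraries, and the lower end of the interval of its log2 fold change was -0.42 in WT and -0.89 in p27KO.

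The filter dropped genes that were under 1 CPM in 4 or more libraries, and with it genes that were high at 1 stage only. With the filter read the other way, 8 more genes of the lists were tested: 4 rose and 3 fell in each genotype. Of all genes under that filter, 34% rose and 34.1% fell in WT, and 28.1% rose and 30.4% fell in p27KO. Genes that enter only through the stage where they are high are admitted by their stage difference. These counts are therefore not read as a result. The following 2 were picked after their values were seen. *Apcdd1*, a membrane inhibitor of Wnt receptors that is itself a Wnt target, measured 1.67, 0.878 and 0.599 CPM in WT PRO and 54.8, 26.0 and 61.4 CPM in WT DIFF, with log2 fold changes of 5.46 in WT and 6.11 in p27KO. *Tle6*, a distant member of the TLE family, measured 47.3, 44.6 and 37.9 CPM in WT PRO and 0.356, 0.415 and 0.316 CPM in WT DIFF, with log2 fold changes of -6.93 and -7.61.

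The genes whose levels went most like those of *Axin2* over the 10 libraries, among 9748 tested genes whose mean was 10 CPM or more, were *Aplp2* (Pearson r = 0.928 of log2 CPM), *Abhd16a* (0.919), *Daglb* (0.903), *Tpst2* (0.903) and *Btbd11* (0.897). Among the members, *Nkd1* was the most like *Axin2*, with r = 0.827, followed by *Tcf7* at 0.720 and *Znrf3* at 0.667, while *Tcf7l1* had -0.562. The points share libraries, stages and the scaling of each library, and the values are given as a description. The corresponding search was not made for *Lef1*, with at most 5 counts in a library.

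The promoters of the members were read from RefSeq (GRCm38.p6), as windows of 300 bases from 250 before to 50 after each start. Of the 10 members, 8 had at least 1 window, 15 in all; *Notum* and *Znrf3* had none. The windows of *Tcf7l1*, which rose most, and of *Axin2*, the usual readout of the pathway, are shown 5′ to 3′ on the strand of the gene, at chr6:72788996-72789295 (minus strand) and chr11:108920099-108920398 (plus strand).
Tcf7l1: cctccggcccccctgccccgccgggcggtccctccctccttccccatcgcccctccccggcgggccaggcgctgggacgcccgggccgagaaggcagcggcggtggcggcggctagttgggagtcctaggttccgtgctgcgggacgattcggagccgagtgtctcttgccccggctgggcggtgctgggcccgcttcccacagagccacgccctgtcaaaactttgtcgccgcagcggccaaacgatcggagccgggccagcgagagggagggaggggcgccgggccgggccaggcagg
Axin2: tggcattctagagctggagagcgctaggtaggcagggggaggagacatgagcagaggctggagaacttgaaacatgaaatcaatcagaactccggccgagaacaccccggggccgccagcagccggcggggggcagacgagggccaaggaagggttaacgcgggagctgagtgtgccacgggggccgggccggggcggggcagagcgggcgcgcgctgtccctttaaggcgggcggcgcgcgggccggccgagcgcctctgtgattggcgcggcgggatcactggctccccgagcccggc
The windows were searched on both strands for the TCF/LEF motif, spelled CTTTGAT or CTTTGAA, and matches would be in capitals. None of the 15 windows of the members, some of which overlap, held it, and 8.7% of all 32851 windows did. With so few windows, a count of 0 is not read as a difference from that share. The windows of the members had a median GC content of 67.3%, and all windows 52.7%. These letters were not in these windows, and TCF/LEF sites are known to lie also in introns and at distant elements, which were not searched.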

How the data were processed

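RNA-seq libraries of 10 cultures in 4 groups were used, grouped by their titles. The authors aligned reads with STAR to the Ensembl mouse transcriptome (GRCm38) and used RSEM, and deposited estimated counts per gene, given as whole numbers without normalization. Versions and the use of strand in counting are not given in the sources used here, so that reads of genes that overlap on opposite strands cannot be told apart. FastQC, Trimmomatic, cutadapt and DESeq2 also stand in the submitters' processing notes. The submitters' sequencing of open chromatin was not used here. A gene of the oligodendroglial marker list is not reported here.

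The 10 members were matched by Ensembl identifier to GENCODE vM21 symbols; 48349 of 48795 identifiers matched. Following the study's methods, genes under 1 CPM in at least 4 libraries were discarded, leaving 12859. Counts were fitted in edgeR 4.0.16 (R 4.3.3, limma 3.58.1) with TMM scaling and a robust quasi-likelihood model of 4 groups. The study used DESeq2, which was run as an alternative (1.42.0). Tests were two-sided, with Benjamini-Hochberg adjusted p under 0.05 over all genes tested. CPM values are counts over the library total, without TMM factors. SEs were derived from the fold change and the F statistic. The members and lists were chosen with earlier results of these data known. The named genes were the members and, per list and stage change, at most the 2 largest rises and falls that passed and averaged 5 CPM or more, with genes of high level. Totals of 19190068 to 25291674 counts per library were available, at which *Lef1*, *Notum* and *Rnf43* had at most 50 counts in a library. Each group had 2 or 3 replicates, and genotype went together with sex.

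Same-numbered WT libraries of the 2 stages deviated together from their group means (r = 0.248, 0.301 and 0.395 across genes, against -0.221 to -0.087 for other pairs). The numbers were used only in the alternative fits with a replicate block, not in the main fit, and no source says what they mark. Same-numbered p27KO libraries had r = -0.138 and crossed ones 0.138. With 2 libraries per group, these values mirror each other by construction. No 2 replicates were copies, with a chi-square per gene of 2.8 to 4.56. Python 3.11.15 with pandas 2.3.3, numpy and matplotlib 3.10.9 made tables, promoter and coding sequence searches and plots.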

Additional observations from a re-analysis of the deposited data

How the results depend on the processing

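Results were recomputed with DESeq2, with its size factors in edgeR, with the filter read the other way or none, with only the groups compared, with counts thinned to equal totals, with a replicate block (also within genotype), with a minimum absolute log2 fold change of 1, and with each library left out. A crossed pairing of the p27KO libraries was added after seeing the data. The replicate block changed no call of a member.

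Counts of members called moved by over 1.5 times only with the minimum fold change, to 2 in WT and 3 in p27KO, and those of other Wnt genes to 21 and 18; all genes then came to 3457 and 3137. For the difference of stage changes, 157 genes were called with DESeq2, 79 without a filter, 29 with the replicate block within genotype, 66 with the crossed one and 0 to 88 with a library left out. At 2 + 1 DIV between genotypes, 631 were called with DESeq2, 39 with only the groups compared, 164 with the minimum fold change and 99 to 282 with a library left out; of other Wnt genes, 1 was called with DESeq2 and 0 to 1 with a library left out. In neurospheres, 40 were called with DESeq2, 9 with the other filter, 14 with no filter, 1 with only the groups compared, 1 with the replicate block, 1 with the minimum fold change and 1 to 4 with a library left out.

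With a library left out, these members changed sign, all from values that did not pass: *Ctnnb1* in WT (log2 fold change -0.0372 to 0.0627) and p27KO (-0.21 to 0.0452), *Tcf7l2* in p27KO (-0.0502 to 0.40); in the difference of stage changes *Ctnnb1* (-0.21 to 0.0495), *Tcf7l1* (-0.15 to 0.18), *Tcf7l2* (-0.39 to 0.0604), *Nkd1* (-0.62 to 0.029) and *Znrf3* (-0.22 to 0.12); between genotypes at 2 + 1 DIV *Ctnnb1* (-0.0971 to 0.0377) and *Tcf7l2* (-0.17 to 0.0518); and in neurospheres *Ctnnb1* (-0.0797 to 0.18), *Tcf7l2* (-0.12 to 0.34), *Axin2* (-0.10 to 0.43), *Nkd1* (-0.21 to 0.44) and *Znrf3* (-0.20 to 0.14). The calls of *Tcf7l1*, *Tcf7*, *Nkd1* and *Znrf3* between stages held in both genotypes in every fit except where the minimum fold change removed *Nkd1* in WT and *Znrf3* in both. Other causes of these moves were not tested. *Lef1* and *Notum*, with at most 7 counts in a library, are limited by depth.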
